A study of Mus musculus with 11 samples.

Results

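Interferon-stimulated genes are genes whose transcription rises when a cell senses interferon, and 43 of them were followed here in sorted myeloid cells of the mouse brain. They were chosen by symbol from a fixed list, of 24411 genes in each count table. Of the 43, 42 were listed under their own symbol and *Ifi207* was listed under its synonym AI607873.

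The study compared routes of giving hematopoietic stem and progenitor cells in a mouse model of Alzheimer's disease. Its routes were intravenous (IV), into the cerebral ventricles (ICV) and intrathecal lumbar (ITL). Each of the 3 routes had 3 sorted populations with 1 library each: CD45.2 µ, CD45.1 µ and CD45.1 TAµ, where CD45.1 and CD45.2 are the allele given as the genotype. A further library had the genotype CD45.2, the treatment ICV and a title naming PBS. The last, CTR µ, had the treatment CTR and no genotype. All 11 libraries were of polyA RNA from brain and carried the cell type "Microglia-like cells". The labels do not expand TAµ or PBS. Strain, age, disease genotype, the allele of the host, the cell subset given and the number of animals behind a library are not given in them. With 1 library for each combination, a population was compared over the 3 routes and a route over the 3 populations.

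Type I interferons bind the receptor IFNAR1 and IFNAR2, and the kinases JAK1 and TYK2 then activate transcription factors, among them STAT2, which joins IRF9 in a complex that binds the interferon-stimulated response element in the promoters of target genes. Type II interferon acts through IFNGR1 and IFNGR2, and its targets carry the gamma-activated site. The targets include sensors of viral RNA, antiviral effectors and the factors of the pathway itself, and microglia, the resident macrophages of the brain, can express them.

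Total counts ran from 6090589 to 21282823 per library, and 3 counts, the limit that a count of 0 allows, were worth 0.141 to 0.493 CPM, the unit of counts scaled to the library total. Genes with at least 1 count numbered from 10477 in IV CD45.2 µ to 15492 in IV CD45.1 TAµ. The ribosomal RNA gene *Rn45s* took 6.98% to 25.1% of the counts. All 14 microglia markers had counts in every library, with a summed level of 11988 to 25280 CPM in the 10 libraries of the 3 routes and 35948 CPM in CTR µ. Border-associated macrophage markers, 7 of 7 in the tables, summed to 623 CPM in IV CD45.2 µ, where *Cbr2* was at 0, to 632 CPM in ITL CD45.2 µ, to 262 CPM in CTR µ and to between 1481 and 2705 CPM in the others. Neutrophil markers, 7 of 8 in the tables, summed to 12886 CPM in IV CD45.1 µ and 1.00 CPM in IV CD45.2 µ. In the latter library *S100a9*, *Retnlg*, *Ltf* and *Mmp8* were at 0, as were 5 of the 7 monocyte markers. Markers of T and NK cells, 9 of 10 in the tables, summed to 19.2, 13 and 18 CPM in the TAµ libraries of IV, ICV and ITL and to between 0 and 5.81 CPM elsewhere. Of the neural and vascular lists, 8 endothelial markers summed to 406 CPM in IV CD45.2 µ, 392 CPM in ICV CD45.1 TAµ and 252 CPM in ITL CD45.2 µ, and to between 30.9 and 94.1 CPM in the other libraries. The 7 astrocyte markers summed to 688 CPM in IV CD45.2 µ and 536 CPM in ITL CD45.2 µ, and to between 49.97 and 287 CPM elsewhere. The 7 oligodendrocyte markers summed to 1244 CPM in ICV CD45.1 TAµ, 934 CPM in ITL CD45.2 µ and 463 CPM in IV CD45.2 µ, and to between 102 and 351 CPM elsewhere. Fewer cells of a type and less RNA per cell cannot be told apart in such bulk libraries.

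The response element itself was present in most member promoters that could be read. RefSeq promoters of build GRCm38.p6, 250 bases before to 50 bases after each start, were matched for 32 of the 43 members. The letters GAAANNGAA or their reverse complement TTCNNTTTC, the core of the interferon-stimulated response element, stood in a promoter of 21 of these 32 (65.6%), against 9.76% of 27025 genes. Over single promoters the shares were 23 of 39 (59.0%) and 8.56% of 32851. The gamma-activated site TTCNNNGAA, its own reverse complement, stood in 9 of the 32 (28.1%), against 9.55% of genes. Of 38 response element matches, 32 lay before the start, at a median of 73.5 bases, and 29 of those within 150 bases. The window holds 250 bases before the start and 50 after it, so most of it lies before the start. A match of *Slfn8* lies in overlapping promoters and was counted in each. Matches of 2 motifs can overlap each other. A promoter without the letters says only that they are not in this window. Members without a matched promoter were *Dhx58*, *Ifi204*, *Ifi27l2a*, *Ly6e*, *Mx1*, *Mx2*, *Oas2*, *Parp14*, *Rtp4*, *Usp18* and *Zbp1*.

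The 140 bases before the start are shown for 5 members picked from those with a match there. Each is given 5′ to 3′ on the strand of the gene, with the letters GAAANNGAA or TTCNNTTTC in capitals. They are *Bst2* at chr8:71537473-71537612 on the minus strand, *Ifi207* at chr1:173741810-173741949 on the minus strand, *Rsad2* at chr12:26456453-26456592 on the minus strand, *Ifit1* at chr19:34640749-34640888 on the plus strand and *Oas1a* at chr5:120907526-120907665 on the minus strand, all GRCm38.p6.
Bst2: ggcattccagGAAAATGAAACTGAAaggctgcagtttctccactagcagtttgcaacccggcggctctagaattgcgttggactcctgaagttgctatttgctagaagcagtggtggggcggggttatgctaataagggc
Ifi207: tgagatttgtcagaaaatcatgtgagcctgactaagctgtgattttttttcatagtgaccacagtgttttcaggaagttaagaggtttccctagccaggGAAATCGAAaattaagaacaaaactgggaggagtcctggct
Rsad2: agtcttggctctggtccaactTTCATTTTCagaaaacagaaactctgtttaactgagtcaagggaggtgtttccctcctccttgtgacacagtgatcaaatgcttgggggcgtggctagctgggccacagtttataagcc
Ifit1: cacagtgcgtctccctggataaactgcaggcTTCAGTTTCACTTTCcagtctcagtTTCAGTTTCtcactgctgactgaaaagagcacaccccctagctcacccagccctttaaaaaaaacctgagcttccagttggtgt
Oas1a: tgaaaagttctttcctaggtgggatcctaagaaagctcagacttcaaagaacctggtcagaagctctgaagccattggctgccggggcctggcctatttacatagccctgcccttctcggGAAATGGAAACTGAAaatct
In *Bst2* and *Oas1a* overlapping matches form 1 run of capitals, *Ifit1* holds 2 runs, and *Ifi207* and *Rsad2* hold a single match each. These 5 do not stand for the members that lead the comparisons below. *Oasl1* and *Ifit2*, each with the smallest p of a comparison, had no match in their promoters, and *Ifitm3* had none before the start.

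Members were read in nearly every library. All 43 had counts in 8 of the 11 libraries. In ICV CD45.1 µ *Oasl1* was at 0 and in ITL CD45.2 µ *Isg15* was at 0. In IV CD45.2 µ 7 members were at 0: *Zbp1*, *Ifit1*, *Isg15*, *Mx1*, *Cmpk2*, *Ifi44* and *Ifi27l2a*. That was 16.3% of the members, beside 23.1% of the 13339 genes tested that were at 0 in the same library, where 0 counts allow up to 0.232 CPM. Summed over the 43 members, the level was 2678, 3456 and 2236 CPM in the IV libraries (CD45.1 µ first, then CD45.1 TAµ, then CD45.2 µ, the order used throughout). It was 3241, 2311 and 2527 CPM in the ICV libraries and 2325, 2534 and 1866 CPM in the ITL libraries. The PBS library was at 2972 CPM and CTR µ, at 1659 CPM, had the lowest sum of the 11. Abundant members such as *Ly6e* weigh most in such a sum. By the mean of log2(CPM + 1) over the 43 members, IV CD45.2 µ was lowest, at 3.94, and CTR µ was at 4.07.

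**Figure D1:**
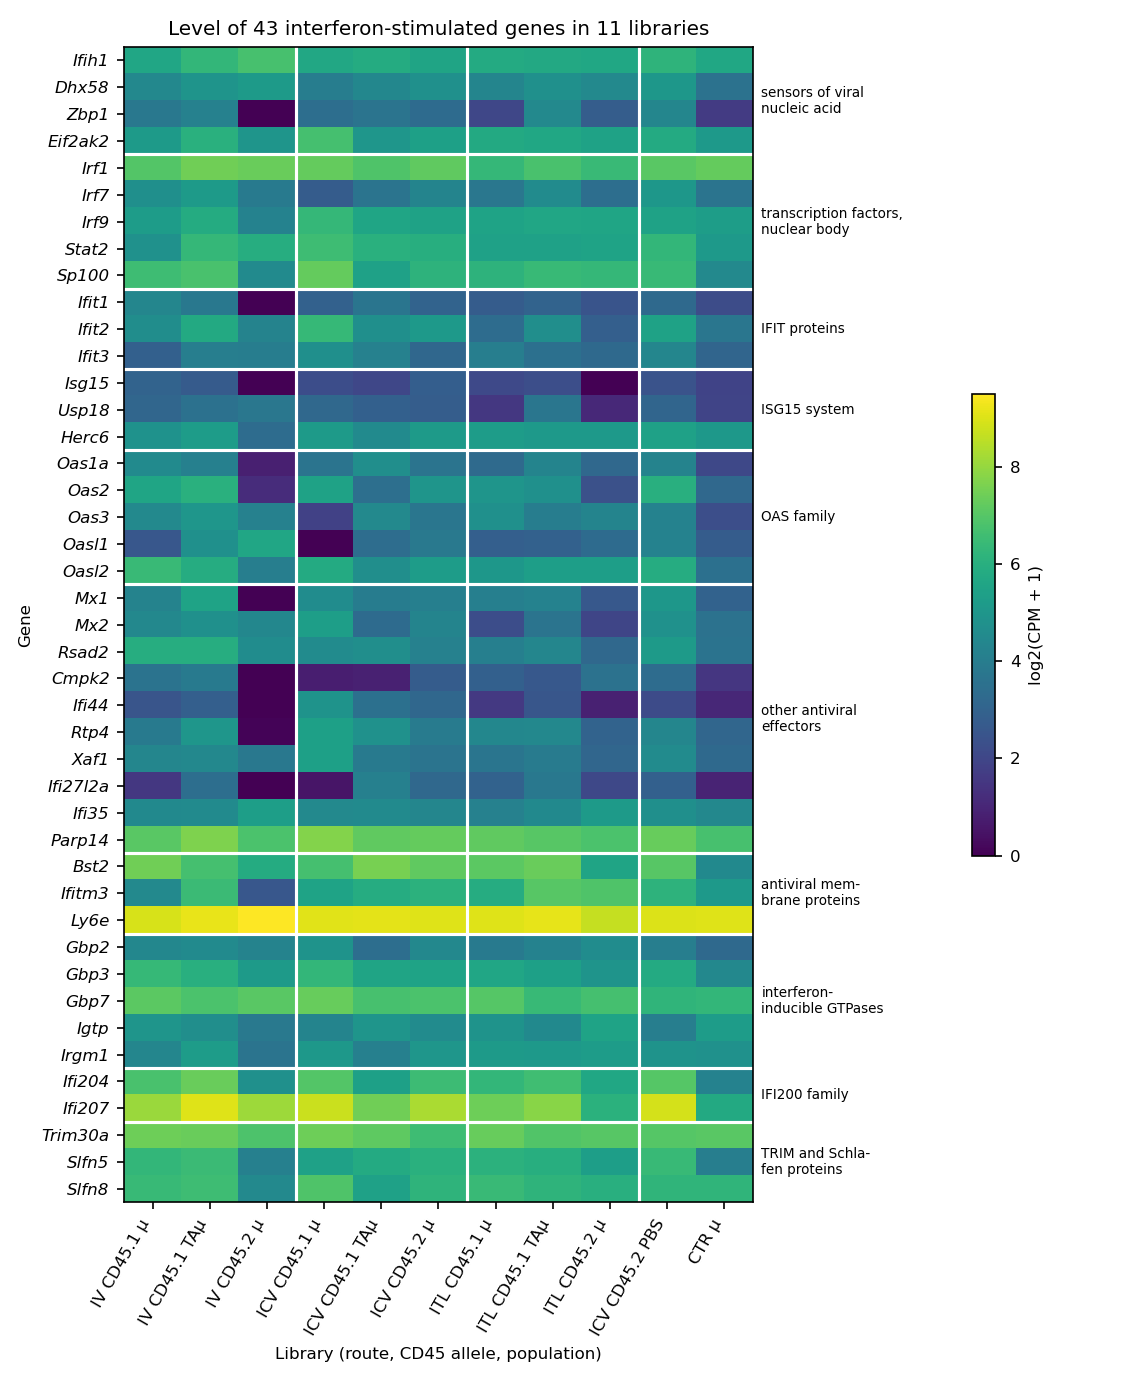
Level of each of the 43 members (rows, grouped by role) in each of the 11 libraries (columns), as log2(CPM + 1) on the color scale. The IV CD45.2 µ column holds 7 members at 0, and *Ly6e* is the brightest row in every library.

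Sensors of viral nucleic acid were the first group. *Ifih1*, which encodes the RNA sensor MDA5, was at 47.8, 78.2 and 105 CPM in IV, 50.8, 55.8 and 45.3 CPM in ICV, and 54.7, 52.8 and 49.4 CPM in ITL. *Eif2ak2*, the kinase PKR that stops translation on double-stranded RNA, was at 35.3, 63.7 and 30 CPM in IV, 102, 31.0 and 41.1 CPM in ICV, and 54.3, 49.2 and 43.2 CPM in ITL. *Ifih1* was highest in IV CD45.2 µ and *Eif2ak2* in ICV CD45.1 µ, so the 2 sensors peaked in different libraries. *Zbp1*, a sensor of left-handed nucleic acid that can start cell death, was at 13.1, 16.9 and 0 CPM in IV, 9.87, 11.5 and 9.07 CPM in ICV, and 3.11, 21.2 and 5.91 CPM in ITL, and *Dhx58*, which encodes the RNA-binding protein LGP2, ranged from 15.4 to 34.8 CPM.

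Among transcription factors, *Irf1*, a factor that both interferon types induce, was at 123, 171 and 160.2 CPM in IV, 149.9, 117 and 143 CPM in ICV, and 78.4, 107 and 84.9 CPM in ITL. The 3 ITL libraries were the 3 lowest. *Sp100*, a component of nuclear bodies, was at 91.9, 108 and 22.3 CPM in IV, 151, 41.9 and 69.8 CPM in ICV, and 70.2, 82.5 and 80.0 CPM in ITL, lowest in IV CD45.2 µ and highest in ICV CD45.1 µ. *Irf9* and *Stat2*, which act in the complex that binds the response element, ranged from 17.6 to 78.8 CPM and from 26.6 to 93.1 CPM. *Irf7*, the factor that amplifies type I interferon transcription, ranged from 5.75 to 34.8 CPM.

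*Ifit2*, of the family that binds viral RNA and blocks its translation, was at 24, 53.7 and 17.9 CPM in IV, 81.2, 25.3 and 32.9 CPM in ICV, and 9.23, 25 and 6.40 CPM in ITL. Its spread was wide in every route. In the ISG15 system, which attaches the ubiquitin-like ISG15 to proteins, the ligase *Herc6* was at 27.5, 37.3 and 9.2 CPM in IV, 35.2, 22.3 and 35.3 CPM in ICV, and 37.1, 33.6 and 34.6 CPM in ITL. Apart from the value in IV CD45.2 µ, *Herc6* stayed between 22.3 and 37.3 CPM. *Usp18*, the protease that removes ISG15 and damps receptor signalling, ranged from 1.15 to 12.8 CPM.

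The OAS proteins make 2′-5′ oligoadenylates that activate RNase L. *Oasl2* was at 85.2, 57.9 and 15.5 CPM in IV, 55.1, 24.8 and 36.8 CPM in ICV, and 31.8, 39.1 and 39.1 CPM in ITL. *Oas2* was at 47.4, 64.1 and 1.31 CPM in IV, 43.9, 10.2 and 29.6 CPM in ICV, and 29.6, 26.2 and 4.10 CPM in ITL. Both were lowest in IV CD45.2 µ, and *Oas2* was also low in ITL CD45.2 µ. *Oasl1*, which represses translation of *Irf7*, went the other way within the family, at 5.04, 26.1 and 47.8 CPM in IV, 0, 9.61 and 13.2 CPM in ICV, and 6.39, 6.73 and 8.87 CPM in ITL. It was highest in IV CD45.2 µ, where *Oas1a* and *Oas2* were at their lowest.

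Among the other antiviral effectors, *Parp14*, an ADP-ribosyltransferase, was at 133, 202 and 110.3 CPM in IV, 212, 146 and 149.7 CPM in ICV, and 143, 131 and 110.2 CPM in ITL. *Ifi35* was at 22, 22.5 and 38.7 CPM in IV, 21.1, 22.6 and 19.5 CPM in ICV, and 17.3, 21.5 and 35.3 CPM in ITL. These effectors were read well above the floor in all 9 libraries, in contrast to *Mx1*, *Rtp4*, *Ifi44* and *Ifi27l2a* below. *Ly6e*, a membrane protein that restricts entry of coronaviruses, was at 491, 580.0 and 723 CPM in IV, 539, 545 and 527 CPM in ICV, and 523, 566 and 408 CPM in ITL. With an SD of 0.22 on the log2(CPM + 1) scale it varied least of the 43 members over the 9 libraries, against a range of SDs up to 1.62.

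The interferon-inducible GTPases attack membranes of intracellular pathogens. *Gbp7* was at 136, 112 and 133 CPM in IV, 157, 106 and 112 CPM in ICV, and 128, 83.9 and 104 CPM in ITL. *Gbp3* was at 82.2, 62.0 and 35.5 CPM in IV, 77.7, 46.2 and 45.15 CPM in ICV, and 48.0, 40.9 and 29.1 CPM in ITL. *Gbp3* was lowest in CD45.2 µ within each route, and *Gbp7* varied little, with an SD of 0.26 on the log2(CPM + 1) scale. Of the IFI200 family of DNA-binding proteins, *Ifi207* was at 271, 527 and 277 CPM in IV, 429.7, 173 and 310.2 CPM in ICV, and 169, 222 and 66.2 CPM in ITL. Of the TRIM and Schlafen proteins, *Trim30a* was at 166, 159 and 113 CPM in IV, 167, 141 and 92.6 CPM in ICV, and 156, 121 and 129 CPM in ITL.

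The 6 members that varied most over the 9 libraries were *Oas2*, *Rtp4*, *Mx1*, *Oasl1*, *Ifi27l2a* and *Ifi44*, with SDs of 1.62, 1.58, 1.58, 1.56, 1.46 and 1.46 on the log2(CPM + 1) scale. *Rtp4*, a chaperone of membrane receptors, was at 13.8, 31.1 and 0.0773 CPM in IV, 41.0, 26.9 and 14.6 CPM in ICV, and 20.1, 20.8 and 7.22 CPM in ITL. The GTPase *Mx1*, which blocks viral nucleocapsids, was at 18, 44.2 and 0 CPM in IV, 23.3, 14.9 and 16.2 CPM in ICV, and 16, 17.4 and 5.09 CPM in ITL. In both the IV CD45.2 µ value lay at or near 0. *Ifi44* was at 4.63, 6.28 and 0 CPM in IV, 28.4, 10.5 and 8.08 CPM in ICV, and 2.01, 4.84 and 0.821 CPM in ITL. *Ifi27l2a*, an effector gene strongly induced by type I interferon, was at 1.94, 9.86 and 0 CPM in IV, 0.449, 16.6 and 8.32 CPM in ICV, and 6.94, 12.8 and 3.12 CPM in ITL. *Ifi44* had its high value in ICV CD45.1 µ, where *Ifi27l2a* was low.

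Extremes were unevenly shared among libraries. IV CD45.2 µ had the lowest of the 9 values for 21 members, where 30% of the genes tested were lowest. ITL CD45.2 µ had the lowest for 10 members, where 4.98% of genes were. ICV CD45.1 µ had the highest value for 15 members, beside 21.5% of genes, and IV CD45.1 TAµ for 12, beside 7.31%. Under TMM scaling, which corrects library totals for composition, these 4 counts were 22, 9, 14 and 9. IV CD45.2 µ and ITL CD45.2 µ were also the 2 libraries with the highest astrocyte marker sums given above, and their part in these counts was not tested.

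No member was called in any comparison between populations or routes. The 43 members all passed the filter on low counts, and each comparison was tested with edgeR's quasi-likelihood test over 13339 genes with Benjamini-Hochberg adjustment at 0.05. No member was called by DESeq2 or limma-voom either. The comparisons below therefore give sizes, signs and overlap of single members, and each is read against the share of all genes that did the same. The 3 population comparisons share libraries with each other, as do the 3 route comparisons.

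**Figure D2:**
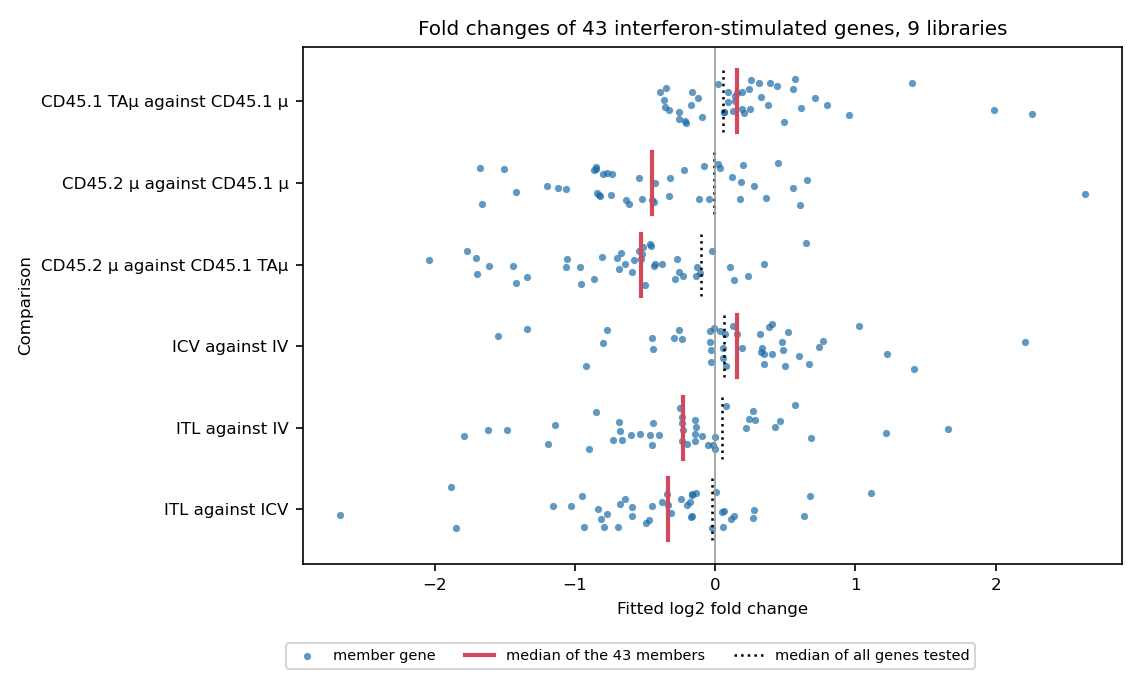
Fitted log2 fold changes (horizontal axis) of the 43 members in 6 comparisons (rows), 1 point per member with vertical jitter, with the median of the members in red and of all 13339 genes tested dotted. The member median lies at -0.53 for CD45.2 µ against CD45.1 TAµ and at 0.16 for ICV against IV.

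CD45.2 µ against CD45.1 µ compares cells of the 2 CD45 alleles under the same population name, µ. All 3 IFIT genes, both MX genes, 3 of 5 OAS genes and 4 of 5 GTPases had negative fold changes, and 5 of 5 GTPases did when library totals alone set the scale. Other groups did not lean that way. The transcription factors and nuclear body group had 3 positive and 2 negative, the membrane proteins 2 and 1, and the sensors 2 and 2. The fold change was negative for 30 members and positive for 13, where 50.4% and 49.6% of genes were, with a median of -0.45 beside -0.0074 for all genes. The call rate over all genes was 0.03%, and 0 members were called. At an unadjusted p under 0.05, 1 member was higher and 3 were lower, where 4.94% and 3.85% of genes were. The 3 libraries of CD45.2 µ lay above all 3 of CD45.1 µ for *Dhx58* and *Oasl1* and below them for *Gbp3*, *Trim30a* and *Slfn8*, where 4.45% and 5.64% of genes did so.

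*Oasl1* had the smallest p: it was 23.3 ± 21.3 CPM in CD45.2 µ and 3.81 ± 3.37 CPM in CD45.1 µ (SD, n = 3). Its log2 fold change was 2.64 (SE 0.79, edgeR adjusted p = 0.485), higher in 3 of 3 routes. *Rtp4* had a log2 fold change of -1.66 (SE 0.65, edgeR adjusted p = 0.521), lower in 3 of 3 routes with levels that overlapped. It was -1.06 without IV CD45.2 µ and -2.98 without ICV CD45.2 µ. *Gbp3* was 36.6 ± 8.10 CPM in CD45.2 µ and 69.3 ± 18.6 CPM in CD45.1 µ (SD, n = 3). The log2 fold change of *Gbp3* was -0.85 (SE 0.33, edgeR adjusted p = 0.524). CD45.2 µ was lower in 3 of 3 routes for 16 members, where 13.4% of genes were, and higher in 3 of 3 for 2, where 11.3% were. Beside *Rtp4* and *Gbp3*, the 16 were *Eif2ak2*, *Ifit2*, *Oas1a*, *Oas2*, *Mx1*, *Mx2*, *Rsad2*, *Ifi44*, *Xaf1*, *Parp14*, *Gbp7*, *Ifi204*, *Trim30a* and *Slfn8*. These counts over routes were made on library totals and depend on that scaling. In ICV 30 members were lower by library totals, where 51.4% of genes were, and 23 under TMM scaling, where 41.7% were.

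The median member difference between CD45.2 µ and CD45.1 µ, on the log2(CPM + 1) scale, was -1.02 in IV, -0.42 in ICV and -0.32 in ITL, beside 0, -0.036 and 0.075 for all genes. The ICV value was -0.18 under TMM scaling. The fitted median was -0.20 without IV CD45.2 µ and -0.91 without ICV CD45.2 µ. Without the 2 libraries that held the most members at their lowest (IV CD45.2 µ) and highest (ICV CD45.1 µ), 24 fold changes were positive and 19 negative and the median was 0.045. Border-associated macrophage markers summed to 623 to 1738 CPM in CD45.2 µ and 2008 to 2705 CPM in CD45.1 µ, ranges that do not overlap, and their part in the result was not tested. The 4 Y-linked genes summed to 1.22 to 45.8 CPM in CD45.2 µ and 82.0 to 350 CPM in CD45.1 µ, again without overlap. *Xist*, the RNA that coats the silenced X, was at 4028 to 6399 CPM and 295 to 6291 CPM. The part of sex was not tested.

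CD45.2 µ against CD45.1 TAµ had the most one-sided members of the 6 comparisons. The fold change was negative for 38 members and positive for 5, where 56.9% and 43.1% of genes were. All 3 IFIT genes, 4 of 5 OAS genes, 9 of 10 other antiviral effectors and 3 of 3 membrane proteins were on the negative side. The member median was -0.53 beside -0.098 for all genes. Over all genes 0.345% were called, with 0 members among them. At an unadjusted p under 0.05, 5 members were lower and 0 higher, where 3.07% and 3.69% of genes were. CD45.2 µ lay below all 3 TAµ libraries for *Zbp1*, *Ifit1*, *Oas1a*, *Rtp4*, *Xaf1* and *Ifi27l2a*, where 6.29% of genes did so, and above them for 0 members, where 4.78% did.

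*Rtp4* was 7.29 ± 7.24 CPM in CD45.2 µ and 26.3 ± 5.16 CPM in CD45.1 TAµ (SD, n = 3), without overlap. Its log2 fold change was -2.04 (SE 0.65, edgeR adjusted p = 0.342), and -3.34 without ICV CD45.2 µ. *Bst2*, which encodes tetherin, a membrane protein that holds budding virus on the cell, was at 171, 103 and 56.0 CPM in IV, 104, 186 and 144 CPM in ICV, and 137, 161 and 45.5 CPM in ITL. *Bst2* was lower in CD45.2 µ than in TAµ in 3 of 3 routes, by a fitted log2 fold change of -0.96 (SE 0.39, edgeR adjusted p = 0.614). The value for *Bst2* was -1.72 without ICV CD45.2 µ and -0.63 without ITL CD45.2 µ. The fold change of *Mx1* was -1.77 on the log2 scale (SE 0.75, edgeR adjusted p = 0.658). It was the least stable of the named fold changes, at -0.80 without IV CD45.2 µ, -0.97 without IV CD45.1 TAµ, -2.66 without ICV CD45.1 TAµ and -4.16 without ICV CD45.2 µ. Leaving out 1 library changed a call for 1 member: without ICV CD45.2 µ, *Oas2* was called, with a log2 fold change of -4.23 (edgeR adjusted p = 0.0315). In the edgeR fit to all 9 libraries the log2 fold change of *Oas2* was -1.34 (SE 0.76, adjusted p = 0.817), and over 18 settings its adjusted p ran from 0.0315 to 1.

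Within routes, the median member difference between CD45.2 µ and TAµ on the log2(CPM + 1) scale was -1.25 in IV, 0.085 in ICV and -0.33 in ITL, beside -0.27, 0.0855 and 0.13 for all genes. The ICV value thus lay at that of all genes, and under TMM scaling it was 0.0079. Without IV CD45.2 µ 29 fold changes were negative and 14 positive and the fitted median was -0.33. It was -0.93 without ICV CD45.1 TAµ. T and NK cell markers summed to 13 to 19.2 CPM in TAµ and 0 to 1.46 CPM in CD45.2 µ, and all 9 were at 0 in IV CD45.2 µ. Their part in the result was not tested. *Xist* was at 4028 to 6399 CPM in CD45.2 µ and 12.3 to 429 CPM in TAµ. The 4 Y-linked genes summed to 1.22 to 45.8 CPM and 184 to 488 CPM, so the sex of the cells and the population cannot be told apart.

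CD45.1 TAµ against CD45.1 µ compares 2 populations of the same allele. *Ifitm3*, an endosomal membrane protein that blocks virus entry, and *Ifi27l2a* were among several members at higher levels in TAµ in each route. Some other members were lower in each route. The fold change was positive for 30 members and negative for 13, where 54% and 46% of genes were, and for 25 and 18 when library totals alone set the scale. The median was 0.16 beside 0.057 for all genes. The call rate over all genes was 0.075%, with 0 members called. At an unadjusted p under 0.05, 3 members were higher and 0 lower, where 3.23% and 2.13% of genes were. TAµ lay above all 3 CD45.1 µ libraries for *Oasl1*, *Ifi27l2a* and *Ly6e* (7.89% of genes) and below them for *Gbp7* (6.33%).

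*Ifitm3* was at 21.5, 87.5 and 4.95 CPM in IV, 44.8, 57.6 and 68.4 CPM in ICV, and 58.3, 129 and 117 CPM in ITL. Its mean was 91.5 ± 36.0 CPM in TAµ and 41.5 ± 18.6 CPM in CD45.1 µ (SD, n = 3), with overlap. The log2 fold change was 1.41 (SE 0.49, edgeR adjusted p = 0.874), and 0.66 without IV CD45.1 TAµ. *Ifi27l2a* was 13.1 ± 3.40 CPM in TAµ and 3.11 ± 3.40 CPM in CD45.1 µ (SD, n = 3), with a log2 fold change of 2.26 (SE 0.95, edgeR adjusted p = 0.874). It was 1.33 without ICV CD45.1 µ and 3.39 without ITL CD45.1 µ. *Oasl1* had a log2 fold change of 1.99 (SE 0.84, edgeR adjusted p = 0.874). The median member difference within routes was 0.42 in IV, -0.52 in ICV and 0.19 in ITL on the log2(CPM + 1) scale, beside 0.15, -0.066 and -0.043 for all genes. Under TMM scaling the ICV median was -0.19, and the ICV mean was 0.058, of the other sign. The fitted median was -0.097 without IV CD45.1 TAµ and 0.40 without ICV CD45.1 TAµ. *Xist* was at 12.3 to 429 CPM in TAµ and 295 to 6291 CPM in CD45.1 µ, and the part of sex in the result was not tested.

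Of the route comparisons, ITL against IV is given first. *Rsad2*, the antiviral enzyme viperin, *Ifi207*, *Irf1* and *Mx2* were lower in all 3 ITL libraries than in any IV library, where 6.84% of genes were, and 0 members were higher in all 3, where 4.74% of genes were. The fold change was negative for 32 members and positive for 11, where 47% and 53% of genes were, with a median of -0.23 beside 0.049 for all genes. Without IV CD45.1 TAµ the median was -0.0074. Over all genes 0.217% were called, 0 of them members. At an unadjusted p under 0.05, 4 members were lower and 1 higher, where 3.09% and 2.26% of genes were.

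*Rsad2* was at 59.0, 59.2 and 23.5 CPM in IV, 22.9, 25 and 16.9 CPM in ICV, and 16, 19.4 and 8.21 CPM in ITL. Within IV the CD45.2 µ value was the lowest, and it still lay above the 3 ITL values. The means were 47.2 ± 20.6 CPM in IV and 14.5 ± 5.75 CPM in ITL (SD, n = 3), and the log2 fold change was -1.62 (SE 0.46, edgeR adjusted p = 0.311). The log2 fold change ran from -1.76 to -1.29 when each library was left out in turn. *Ifi207* averaged 358 ± 146 CPM in IV and 152 ± 79.1 CPM in ITL (SD, n = 3), with a log2 fold change of -1.19 (SE 0.36, edgeR adjusted p = 0.418). *Ifitm3* went the other way, at 38 ± 43.7 CPM in IV and 101 ± 37.9 CPM in ITL (SD, n = 3). Its log2 fold change was 1.66 (SE 0.51, edgeR adjusted p = 0.429), higher in 3 of 3 populations with overlapping levels. It was 1.00 without IV CD45.2 µ and 2.66 without IV CD45.1 TAµ.

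The ligand itself was low in ITL. *Ifnb1*, which encodes interferon beta, was at 5.40, 12.2 and 9.66 CPM in IV, 4.67, 0.251 and 5.50 CPM in ICV, and 0, 0.736 and 0.164 CPM in ITL. Each ITL value lay below each IV value, and the floor of the first ITL library was 0.274 CPM. The fitted log2 fold change of *Ifnb1* for ITL against IV was -4.74 (SE 1.79, edgeR adjusted p = 0.767). The fitted fold of a gene with a library at 0 depends on the prior count. By population, the median member difference between ITL and IV on the log2(CPM + 1) scale was -0.32 for CD45.1 µ, -0.48 for CD45.1 TAµ and 0.19 for CD45.2 µ, beside 0, -0.14 and 0.18 for all genes. The CD45.2 µ value thus lay near that of all genes, and the TAµ value was -0.30 under TMM scaling.

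**Figure D3:**
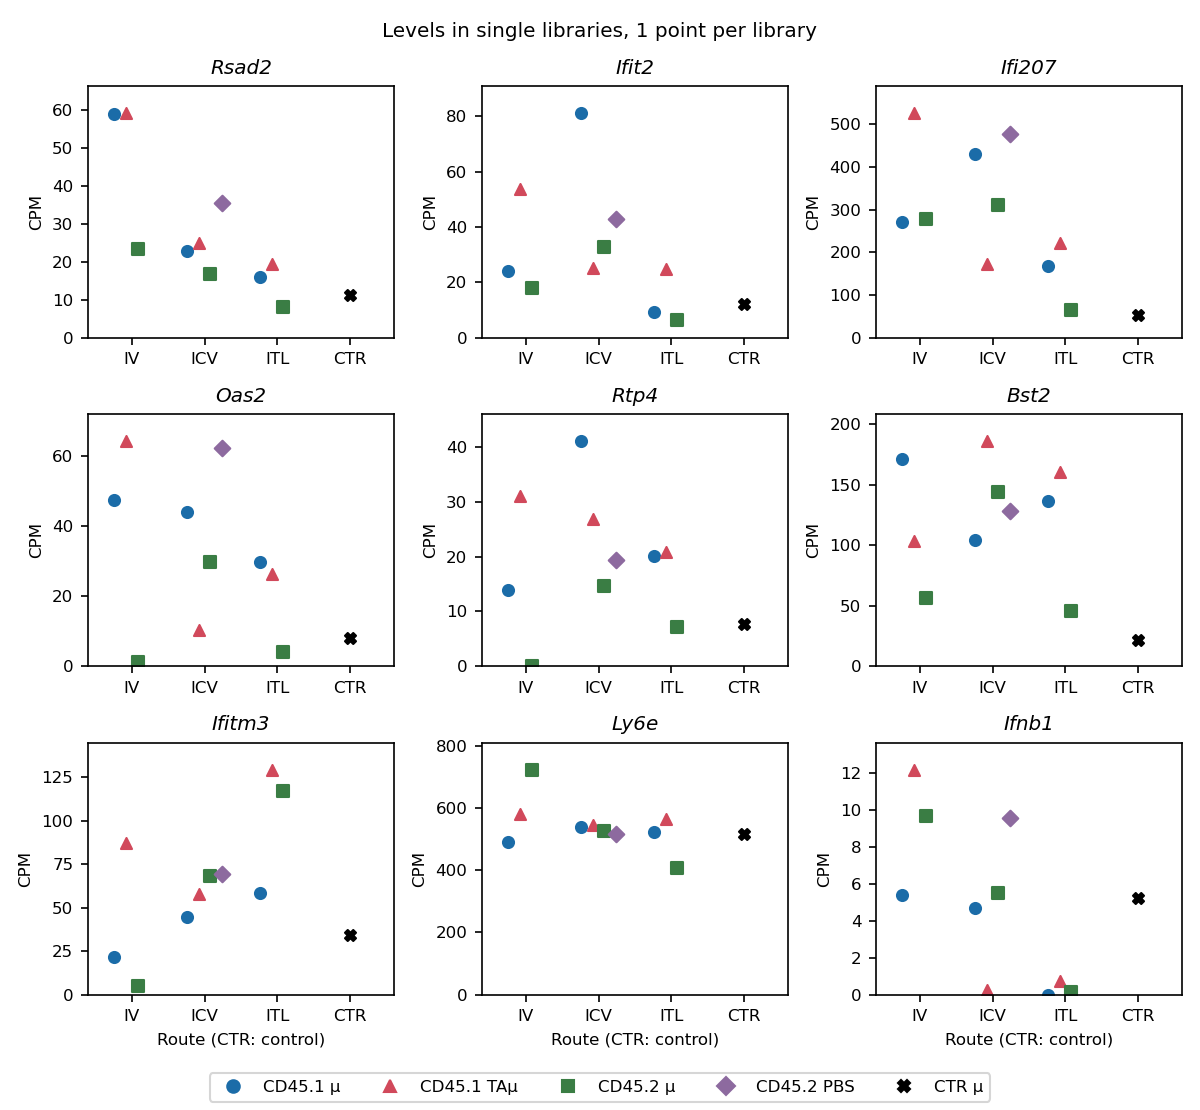
CPM (vertical axis, from 0) of 8 members and of *Ifnb1* by route and in CTR µ, 1 point per library, with populations by color and shape. The 3 ITL points of *Rsad2* and *Ifnb1* lie below the 3 IV points, and the *Bst2* point of CTR µ, at 21.7 CPM, is the lowest of its panel.

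ITL against ICV gave negative fold changes for 32 members and positive for 11, where 51.6% and 48.4% of genes were, with a median of -0.33 beside -0.022 for all genes. No gene was called (0% of those tested), and no member. At an unadjusted p under 0.05, 6 members were lower and 0 higher, where 2.16% and 1.63% of genes were. ITL lay below all 3 ICV libraries for *Irf1*, *Stat2*, *Ifit2*, *Ifi44* and *Parp14*, where 3.28% of genes did so, and above them for *Irgm1* (6.47%), a GTPase of autophagy and pathogen defence. The smallest p belonged to *Ifit2*, at 46.5 ± 30.3 CPM in ICV and 13.5 ± 10 CPM in ITL (SD, n = 3). Its log2 fold change was -1.88 (SE 0.57, edgeR adjusted p = 0.847), and -1.26 without ICV CD45.1 µ. *Ifi207* had -1.16 (SE 0.37, edgeR adjusted p = 0.965) and *Ifi44* -2.67 (SE 0.97, edgeR adjusted p = 0.998) on the same scale. That of *Ifi207* was -0.73 without ICV CD45.2 µ and -0.74 without ITL CD45.2 µ. The median member difference was -0.49 for CD45.1 µ, 0.051 for CD45.1 TAµ and -0.45 for CD45.2 µ, beside 0, 0.104 and 0.17 for all genes, and the TAµ value was -0.050 under TMM scaling. The fitted median was -0.067 without ICV CD45.2 µ and -0.56 without ICV CD45.1 TAµ.

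ICV against IV was mixed. *Ifi44* lay higher and *Rsad2*, *Dhx58*, *Oas3* and *Oasl1* lower in ICV in each population. The fold change was positive for 28 members and negative for 15, where 53.9% and 46.1% of genes were, and for 23 and 20 when library totals alone set the scale, with a median of 0.16 beside 0.065 for all genes. No gene was called (0% of those tested), and no member. At an unadjusted p under 0.05, 2 members were higher and 2 lower, where 5.17% and 4.05% of genes were. ICV lay above all 3 IV libraries for *Ifi44* alone, where 3.06% of genes did so, and below them for 0 members (7.01%).

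*Ifi44* was 15.6 ± 11.1 CPM in ICV and 3.64 ± 3.26 CPM in IV (SD, n = 3), and its log2 fold change was 2.21 (SE 0.79, edgeR adjusted p = 0.439). The log2 fold changes of *Oasl1* and *Rsad2* were -1.55 (SE 0.66, edgeR adjusted p = 0.505) and -0.92 (SE 0.41, edgeR adjusted p = 0.524). By population the median member difference was 0.13 for CD45.1 µ, -0.54 for CD45.1 TAµ and 0.76 for CD45.2 µ, beside 0, -0.27 and 0.092 for all genes. Under TMM scaling these were 0.0094, -0.25 and 0.99. Without IV CD45.2 µ the fitted median was -0.070, with 16 members positive and 27 negative, and without ICV CD45.1 TAµ it was 0.52. Neutrophil markers spanned 1.00 to 12886 CPM over the IV libraries, 764 to 2710 CPM over ICV and 1383 to 3725 CPM over ITL, and their part in the route comparisons was not tested.

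Other genes of the pathway behaved as follows. Of 19 genes for type I and III interferons, only *Ifnb1* passed the filter; 15 of the other 18 had no count in any library, and *Ifna7*, *Ifnab* and *Ifnk* had counts in 1 library each, at most 0.526 CPM. *Ifng*, the type II ligand made mainly by T and NK cells, was at 1.69 CPM in IV CD45.1 TAµ and 4.01 CPM in ICV CD45.1 TAµ. Elsewhere among the 9 it reached 0.183 CPM in ITL CD45.1 µ and 0.210 CPM in ITL CD45.1 TAµ and was at 0 in 5 libraries. Among the receptors, *Ifnar1* was at 305, 412 and 104 CPM in IV, 435, 299.6 and 312 CPM in ICV, and 287, 349 and 156 CPM in ITL. It was lowest in the CD45.2 µ libraries of IV and ITL. Its log2 fold change for CD45.2 µ against CD45.1 TAµ was -1.07 (SE 0.31, edgeR adjusted p = 0.225).

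Over 8 lists of pathway genes (ligands of both types, receptors, signalling proteins, other IRF factors, upstream sensing genes, negative regulators and other targets), 0 genes were called in any of the 6 comparisons. The last of these lists, 54 other interferon-stimulated genes, had 52 tested. For CD45.2 µ against CD45.1 TAµ 42 of these 52 were negative and 10 positive, with a median of -0.52, and 4 were lower and 0 higher at an unadjusted p under 0.05, where 56.9% and 43.1% of all genes were negative and positive and 3.07% and 3.69% were lower and higher. With CD45.1 µ as the reference for CD45.2 µ, 33 were negative and 19 positive, where 50.4% of all genes were negative. For ITL against IV 33 were negative and 19 positive (47% of genes negative) and for ITL against ICV 32 and 20 (51.6%). For ICV against IV the counts were 23 and 29 (46.1%), and for TAµ against CD45.1 µ 18 and 34 (46%). This list too was chosen with results of these data known and is no independent support.

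Most members stood lower in the control library than their mean over the 9. In CTR µ *Bst2*, the DNA-binding *Ifi204* and *Ifi207*, and *Oasl2* had their lowest level of all 11 libraries. Relative to the mean of the 9 on the log2(CPM + 1) scale, 38 of the 43 members were lower in CTR µ, where 52.6% of genes were, with a median of -0.71 beside -0.039 for all genes. Of the 43, 11 lay below all 9 libraries, where 6.97% of genes did, and 0 lay above, where 5.17% of genes did. There is 1 CTR library, so no test was made.

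*Bst2* was at 21.7 CPM in CTR µ and at 45.5 CPM or more in each of the 9. *Oasl2* was at 10.4 CPM against at least 15.5 CPM, and *Ifi204* at 17.5 CPM against at least 26.0 CPM. *Gbp3* was at 20.4 CPM against at least 29.1 CPM. These 4 lay furthest outside the range. The others below all 9 were *Dhx58*, *Sp100*, *Parp14*, *Gbp2*, *Gbp7*, *Ifi207* and *Slfn5*. By role, 5 of 5 OAS genes, 10 of 10 other antiviral effectors, 3 of 3 IFIT genes, 4 of 4 sensors and 2 of 2 IFI200 genes were lower than the mean of the 9. *Irf1* at 150.5 CPM, *Slfn8* at 73.4 CPM, *Igtp* at 37.3 CPM, *Herc6* at 32.3 CPM and *Irgm1* at 26.9 CPM were not lower, and *Ly6e*, at 517 CPM, was within the range of the 9.

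Under TMM scaling, which moved the median of all genes from -0.039 to 0.072, 35 members were lower and 8 lay below all 9, while *Irf1* lay above them. The 3 that no longer lay below were *Sp100*, *Parp14* and *Slfn5*, and the ISG15 and TRIM and Schlafen groups had medians of 0.072 and 0.11 in place of -0.0085 and -0.015. Microglia markers were highest in CTR µ, at 35948 CPM, and border-associated macrophage markers lowest, at 262 CPM, and their part in the result was not tested. *Xist* was at 0 in CTR µ, where 0 counts allow up to 0.230 CPM, and at 12.3 to 6399 CPM in the 9, and the 4 Y-linked genes summed to 311 CPM in CTR µ and 1.22 to 488 CPM in the 9. The part of sex in the result was not tested. *Ifnb1* was at 5.20 CPM in CTR µ, within the range of the 9.

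**Figure D4:**
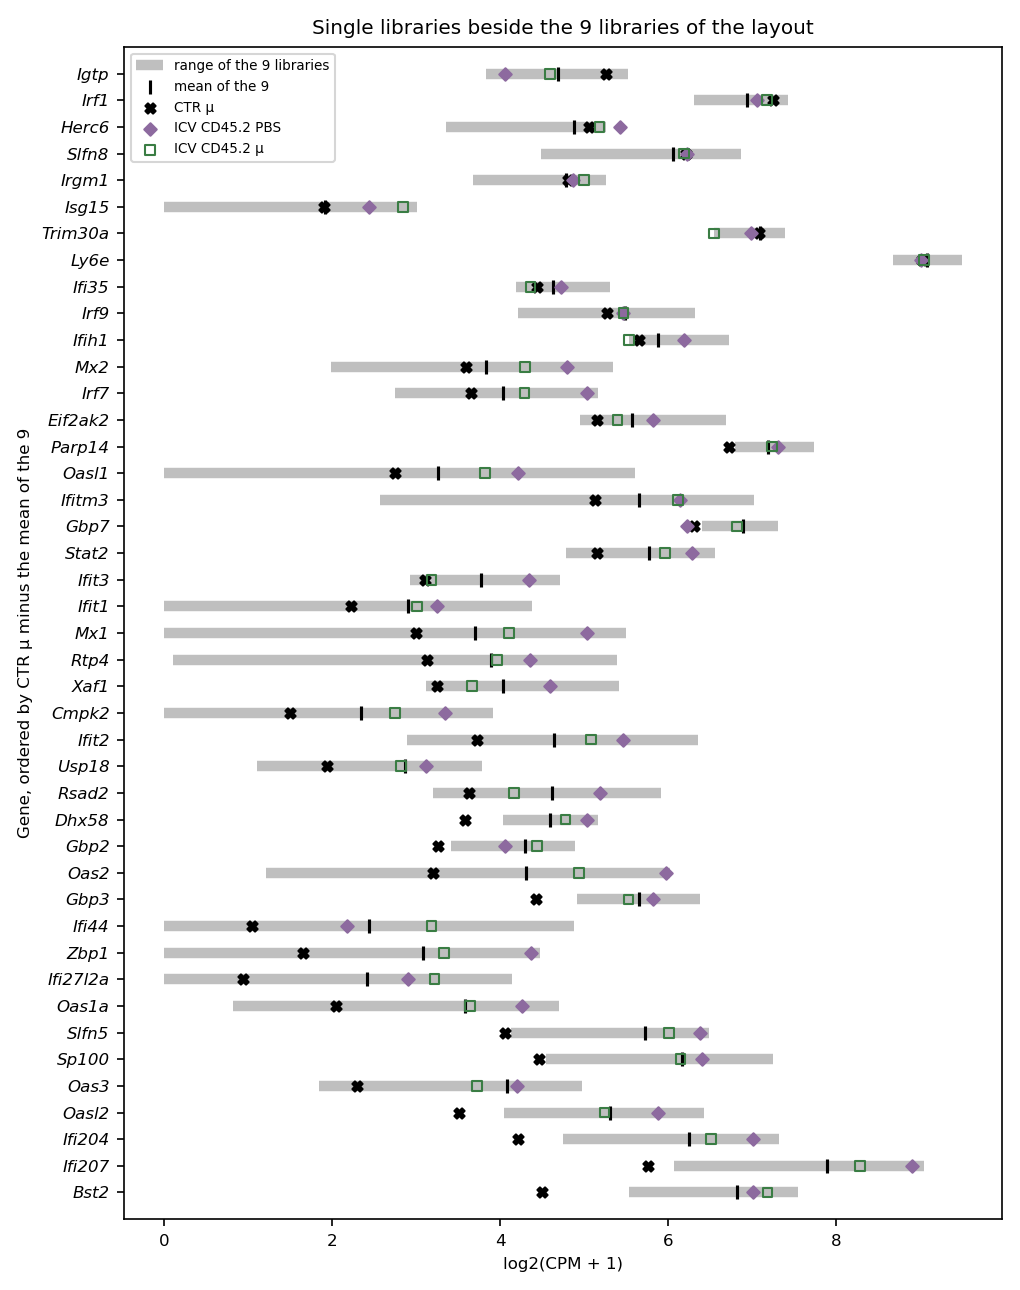
Level on the log2(CPM + 1) scale (horizontal axis) of each member (rows, ordered by CTR µ minus the mean of the 9 libraries), with the range of the 9 as a grey bar, their mean as a tick, and CTR µ, ICV CD45.2 PBS and ICV CD45.2 µ as symbols. CTR µ lies to the left of the grey bar for 11 members, furthest for *Bst2*.

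ICV CD45.2 PBS and ICV CD45.2 µ share allele and route and are 1 library each, so intervals cover counting error only. *Ifit3*, *Zbp1*, *Oas2* and *Rsad2* were over 2 times as high in PBS and *Ifi44* was over 2 times as low. Of the 43 members 32 were higher and 11 lower, where 60.5% and 38.9% of genes were; under TMM scaling 29 were higher and 14 lower. The share over 2-fold higher was 4 of 43, beside 8.45% of genes, and over 2-fold lower 1 of 43, beside 8.25%. The median difference was 0.36 on the log2(CPM + 1) scale, beside 0.11 for all genes.

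*Ifit3* was at 19.3 CPM in PBS and 8.08 CPM in CD45.2 µ, a ratio of 2.39 (95% exact interval 1.99 to 2.88). *Zbp1* was at 19.6 and 9.07 CPM, a ratio of 2.16 (1.81 to 2.58). *Oas2* was at 62.1 and 29.6 CPM and *Rsad2* at 35.4 and 16.9 CPM, each a ratio of 2.10, with intervals of 1.90 to 2.31 and 1.84 to 2.39. These 4 effectors and sensors thus lay outside counting error. *Ifi44* was at 3.52 and 8.08 CPM, a ratio of 0.435 (0.324 to 0.579). *Gbp7*, *Igtp* and *Isg15* had ratios of 0.661 (0.619 to 0.706), 0.672 (0.581 to 0.777) and 0.715 (0.539 to 0.945). Of the 5 GTPases 1 was higher in PBS, and of the 5 OAS genes 5 were, under both scalings. Counting intervals lay above 1 for 27 members and below 1 for 8, where those of 43.5% and 23.7% of genes did, and held 1 for 8. *Ifnb1* was at 9.54 CPM in PBS and 5.50 CPM in CD45.2 µ.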

How the data were processed

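Polyadenylated RNA of sorted brain myeloid cells was prepared with a column kit (RNeasy Plus Micro) and reverse transcribed with SuperScript VILO, per the labels' protocols. The authors deposited raw counts per gene for each of the 11 libraries, and STAR with the mouse builds mm39 and GRCm39 is named, per the submitters' processing notes. Not given in the sources used here were the STAR version, the annotation, the strand setting and any filters. Reads of near-identical genes (*Ifit3* and *Ifit3b*, *Oas1a* and *Oas1g*, and the Gbp, Schlafen, Trim30 and Ifi200 genes) may have been split or dropped in counting, so the values of *Ifit3*, *Oas1a*, *Slfn8*, *Trim30a*, *Ifi204*, *Ifi207* and the Gbp genes are uncertain, and overlapping genes on opposite strands may share counts.

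From the deposited counts, CPM was computed on the library total, since the members are defined on that scale, and log2(CPM + 1) was used for differences between single libraries. The 9 libraries of 3 routes and 3 populations were fitted with edgeR 4.0.16 in R 4.3.3 (TMM scaling, additive route and population, quasi-likelihood with the bias-adjusted deviance). Genes were kept by a minimum count of 10 and a minimum total of 15, which left 13339 genes, all 43 members among them, with 4 residual degrees of freedom. The common coefficient of variation between libraries was 0.842. The p-values were adjusted by Benjamini-Hochberg over all 13339 genes. They measure the spread of libraries around the additive fit. With 1 library per combination, that spread cannot be told apart from route differences that vary with population. Nothing in the labels says how many animals a library holds. Standard errors are the log2 fold change divided by the root of its F statistic. Counting intervals are exact 95% binomial intervals and, like the floor of 3 counts, cover counting error only. The fit was also run on simulated counts with known changes. Those counts held no route or population differences beyond the changes set. The outcome is not given here, so it does not show how large a change the comparisons could miss.

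Genes named with values were, by rule, every member called, the 2 members of each role list with the highest mean level (1 in lists of 2 or 3), the 6 with the largest SD, the 3 with the smallest p in each comparison, those furthest outside the range of the 9 libraries in CTR µ and the 4 with the largest ratio each way for PBS. Genes that did not overlap between groups, *Dhx58*, *Irf7*, *Irf9*, *Stat2* and *Usp18*, and pathway genes given with values, were named after their values were seen. The 43 members and all lists were chosen with earlier results of these data known. Alternatives were other scalings, no filter, DESeq2 1.42.0, limma-voom 3.58.1, fewer libraries, other pseudocounts and edgeR's legacy fit, the last chosen after seeing the data. Genes listed under older symbols in the tables were matched through RefSeq synonyms, and promoters came from a RefSeq table. *Ly6g* and *Trac* of the marker lists had no row. One pathway gene is not reported here.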

Additional observations from a re-analysis of the deposited data

Results flagged for a closer look

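The sign of the median member difference turned between routes or populations in 5 of the 6 comparisons. In 4 of them the signs were the same under TMM scaling. In the other, ITL against ICV, the CD45.1 TAµ value was 0.051, and -0.050 under TMM scaling. Each value below is a median over the 43 members of the log2(CPM + 1) difference between 1 library and 1 library, and the difference between routes or populations was not tested, since every combination has 1 library.

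Between CD45.1 TAµ and CD45.1 µ (the first minus the second) the median was 0.42 in IV, -0.52 in ICV and 0.19 in ITL. Between CD45.2 µ and CD45.1 TAµ it was -1.25 in IV, 0.085 in ICV and -0.33 in ITL. In both comparisons the ICV libraries had the sign opposite to IV and ITL. The size of both ICV values depends on the scaling. For TAµ and CD45.1 µ in ICV the median was -0.19 under TMM scaling, where the mean was 0.058. For CD45.2 µ and TAµ in ICV the median over all genes was 0.0855, like that of the members, and the member median was 0.0079 under TMM scaling.

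For ICV against IV the median was 0.13 in CD45.1 µ, -0.54 in CD45.1 TAµ and 0.76 in CD45.2 µ. For ITL against IV it was -0.32 in CD45.1 µ, -0.48 in CD45.1 TAµ and 0.19 in CD45.2 µ. Over all genes the medians of ITL against IV were 0, -0.14 and 0.18, so the positive CD45.2 µ value lay near that of all genes, and the TAµ value was -0.30 under TMM scaling. The CD45.2 µ values of both comparisons are differences from the same IV CD45.2 µ library, in which 7 members were at 0. Its part in these values was not tested.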

How the results depend on the processing

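Fold changes of the named members kept their sign in all 306 alternative values, but not their size: 9 of the 18 moved by over 1.5 times on the log2 scale when 1 library was left out, *Mx1* in CD45.2 µ against CD45.1 TAµ from -4.16 to -0.80. The median member fold change turned sign without both ICV CD45.1 µ and IV CD45.2 µ in CD45.2 µ against CD45.1 µ (0.045) and for ICV against IV (-0.099). It also turned without IV CD45.1 TAµ in CD45.1 TAµ against CD45.1 µ (-0.097) and, for ICV against IV, without ICV CD45.2 µ (-0.040) or IV CD45.2 µ (-0.070). With 1 library left out at a time it ran from -0.097 to 0.40 in CD45.1 TAµ against CD45.1 µ, from -0.91 to -0.20 in CD45.2 µ against CD45.1 µ, from -0.93 to -0.33 for CD45.2 µ against CD45.1 TAµ, from -0.070 to 0.52 for ICV against IV, from -0.30 to -0.0074 for ITL against IV and from -0.56 to -0.067 for ITL against ICV. Members called stayed at 0 except for 1, *Oas2*, in CD45.2 µ against CD45.1 TAµ without ICV CD45.2 µ, so the range there was 0 to 1. Genes called over the whole table moved more. In CD45.1 TAµ against CD45.1 µ they were 10, and 18 with library totals alone, 23 with no filter, 217 with DESeq2, 0 with limma-voom, 3 with the legacy fit and 0 to 24 with 1 library left out. In CD45.2 µ against CD45.1 µ they were 4, and 277 with DESeq2, 0 with limma-voom, 0 with the legacy fit, 0 with the 6 libraries alone and 0 to 29 with 1 left out. For CD45.2 µ against CD45.1 TAµ they were 46, and 193 with DESeq2, 25 with limma-voom, 22 with the legacy fit, 22 with the 6 libraries alone and 5 to 159 with 1 left out. For ICV against IV they were 0, and 3 with library totals alone, 8 with no filter, 147 with DESeq2, 5 with limma-voom, 1 with the 6 libraries alone and 0 to 28 with 1 left out. For ITL against IV they were 29, and 150 with DESeq2, 10 with the legacy fit, 49 without both libraries and 0 to 35 with 1 left out. For ITL against ICV they were 0, and 2 with no filter, 32 with DESeq2, 2 without both libraries, 1 with the 6 libraries alone and 0 to 3 with 1 left out. The cause was not tested. The medians for CTR µ and PBS and the share of members with a response element moved by less than their spread. The fit already compares populations within routes and routes within populations, and the labels carry no replicate numbers for a further block. Precision is limited by 1 library per combination and, for some members, by counts of 0 or a few in IV CD45.2 µ. That library had 12938826 counts and the fewest genes with a count, 10477. ITL CD45.2 µ, with 6090589 counts, had 13627 such genes. The part of total counts in the zeros was not tested.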

Other observations

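Genes that sense nucleic acid upstream of interferon lay on the other side in CTR µ from most members. Of 11 such genes tested, 9 were higher in CTR µ than the mean of the 9 libraries, where 47.4% of all genes were, with a median of 0.66 on the log2(CPM + 1) scale. *Tlr7*, the endosomal sensor of single-stranded RNA, was at 690 CPM in CTR µ and at most 479 CPM in the 9. *Tlr3*, the sensor of double-stranded RNA, was at 142 CPM and at most 122 CPM, and *Sting1*, the adaptor of the cytosolic DNA sensor, was at 404 CPM and at most 314 CPM. *Myd88* also lay above all 9, at 53.3 CPM and at most 48.3 CPM. *Tlr9* did so only just, at 215.4 CPM and at most 213.9 CPM. These 5 lay above all 9 under TMM scaling too, where 5.17% of all genes lay above all 9 by library totals. The microglia markers summed to 35948 CPM in CTR µ, more than in any of the 9, and their part in this was not tested.

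The 52 other interferon-stimulated genes tested had 39 lower and 13 higher in CTR µ, with a median of -0.50, where 52.6% of all genes were lower and 47.4% higher. Of them, 11 lay below all 9 libraries, and 9 under TMM scaling, where 6.97% of all genes did by library totals. Among the 11 were *Nlrc5*, the activator of MHC class I genes, at 11.5 CPM in CTR µ, and *Ddx60* at 14.5 CPM. In ICV CD45.2 PBS 38 of the 52 were higher than in ICV CD45.2 µ and 14 lower, where 60.5% and 38.9% of all genes were, with a median of 0.16 beside 0.11 for all genes. There is 1 library on each side, so no test was made.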
